A study of Mus musculus with 6 samples.

Results

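The 10 genes Mat1a, Gnmt, Ahcy, Bhmt, Cbs, Cth, Cdo1, Csad, Got1 and Slc6a6 act in sulfur amino acid and taurine metabolism in the liver. They were chosen by symbol, and each had 1 row among the 32212 rows of the count table. RNA was taken from the livers of 2 yr old male C57BL/6 mice on normal chow, 3 wild-type (WT) and 3 CgA-KO, with 1 library per mouse. CgA-KO mice lack chromogranin A (CgA), the prohormone encoded by Chga, and are studied for how CgA affects blood pressure, insulin action and aging. The labels give no other allele or agent for either genotype, and no batch, hour of collection or feeding state. Whole liver was used, so fewer cells of a type and less RNA per cell cannot be told apart.

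Methionine is activated to S-adenosylmethionine, the main methyl donor of the cell, and after the methyl group is passed on the product is cleaved to homocysteine. Homocysteine is either methylated back to methionine or joined to serine and carried through transsulfuration to cysteine. Liver oxidizes cysteine to cysteine sulfinate, which is decarboxylated toward taurine or transaminated toward pyruvate and sulfite. Hepatocytes use taurine to conjugate bile acids, and the liver is the main site of methionine breakdown in the body.

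All 10 genes passed the filter on low counts, with mean levels in WT between 108 and 2018 CPM (counts of a gene relative to its library's total, with TMM scaling factors between libraries). CgA-KO was compared with WT in a fit over all 13867 genes with edgeR's quasi-likelihood test and Benjamini-Hochberg adjustment, and a gene was called at an adjusted p-value under 0.05. The decarboxylase Csad fell, while Got1, Bhmt and Mat1a rose, and the other 6 genes were not called. That is 4 of 10 genes called, 3 higher and 1 lower, where 12.4% of all genes tested were called, 8.6% higher and 3.84% lower. DESeq2 called 5 of the 10, the same 4 and Cth, where it called 18.8% of all genes. At an unadjusted edgeR p-value under 0.05 there were 5 of the 10, against 29.1% of all genes. The libraries of the genotypes did not overlap in 5 of the 10 genes, against 33.6% of all genes tested, and 4 of these 5 were higher in CgA-KO livers, against 19.0%. The median log2 fold change of the 10 was 0.48, and that of all genes tested was -0.01.

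Library totals ranged from 10558616 counts in WT replicate 1 to 31087453 in WT replicate 2. WT replicate 1, the shallowest library, was the lowest of all 6 libraries in 7 of the 10 genes, and WT replicate 2 was the highest WT library in 8. A list of 10 hepatocyte markers, Alb and Ttr among them, was called in 0 genes by edgeR and summed to between 58790 and 98240 CPM among WT livers and between 48750 and 85150 CPM among CgA-KO livers. WT replicate 1 was the lowest and WT replicate 2 the highest WT library in that sum too. Of 12 Kupffer cell and macrophage markers, 11 were called higher in CgA-KO livers, and their sum rose from between 137 and 364 CPM to between 1496 and 2126 CPM. Of the markers that passed the filter, 6 of 9 for T and NK cells, 3 of 5 for neutrophils and 2 of 8 for stellate cells were called higher. The sums of these 3 lists did not overlap either, from 4.77 to 13.2 CPM against 32.8 to 153 CPM for T and NK cells, from 6.90 to 12.6 CPM against 47.9 to 297 CPM for neutrophils, and from 78.8 to 132 CPM against 150.3 to 226 CPM for stellate cells. Lists for B and plasma cells, sinusoidal endothelium and bile duct overlapped between the genotypes in their sums. Of the markers that passed the filter, 0 of 7 for B and plasma cells and 0 of 5 for bile duct were called. Of 8 for sinusoidal endothelium, 1 was called higher and 1 lower. None of the markers listed was at 0 in every library. The part of these cells in the results below was not tested. Lists of 10 pericentral and 10 periportal hepatocyte genes overlapped between the genotypes in their sums. Of the pericentral genes 1 was called higher and 0 lower, and of the periportal genes 0 were called.

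**Figure D1:**
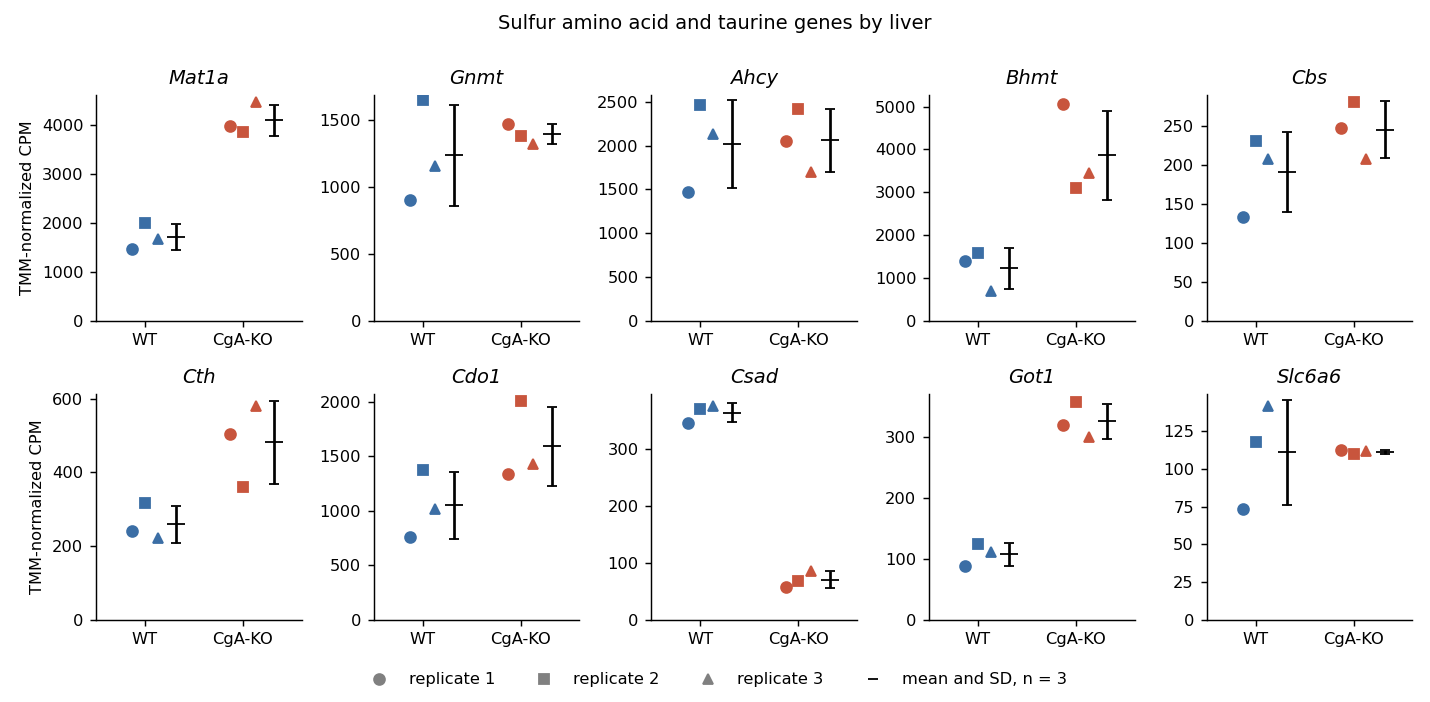
TMM-normalized CPM (y axis, from 0) of each gene in the 3 WT (blue) and 3 CgA-KO livers (red), with the mean and SD of each genotype in black and a marker shape per replicate number. Csad is lower in all 3 CgA-KO livers, Mat1a, Bhmt, Cth and Got1 are higher in all 3, and the other 5 genes overlap.

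The sequences around the start sites of Csad, Bhmt and Got1 are shown because these genes were called and RefSeq (GRCm38.p6) gives their promoters. They run from 250 bases before to 50 bases after a start. Entries were used for 6 of the 10 genes, with 7 entries in all. The fourth called gene, Mat1a, and Cth and Slc6a6 had no entry and are named only. Cdo1 was left out of the matching and is also named only, so whether it has an entry is not reported. All 4 windows lie on the minus strand and are printed 5′ to 3′, with capitals for matches to 12 short motifs searched on both strands.
Csad, upstream start (chr15:102205003-102205302): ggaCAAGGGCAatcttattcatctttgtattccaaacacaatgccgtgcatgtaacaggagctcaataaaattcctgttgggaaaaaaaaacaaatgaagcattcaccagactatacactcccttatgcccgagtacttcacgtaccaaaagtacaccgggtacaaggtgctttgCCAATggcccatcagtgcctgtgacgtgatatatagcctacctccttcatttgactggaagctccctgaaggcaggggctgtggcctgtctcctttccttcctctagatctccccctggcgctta
Csad, downstream start (chr15:102188994-102189293): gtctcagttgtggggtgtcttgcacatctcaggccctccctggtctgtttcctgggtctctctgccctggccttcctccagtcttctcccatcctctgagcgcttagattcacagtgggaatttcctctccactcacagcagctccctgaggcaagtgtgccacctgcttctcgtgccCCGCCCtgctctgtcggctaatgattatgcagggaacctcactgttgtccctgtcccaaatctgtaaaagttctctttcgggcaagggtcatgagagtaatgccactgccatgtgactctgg
Bhmt (chr13:93637709-93638008): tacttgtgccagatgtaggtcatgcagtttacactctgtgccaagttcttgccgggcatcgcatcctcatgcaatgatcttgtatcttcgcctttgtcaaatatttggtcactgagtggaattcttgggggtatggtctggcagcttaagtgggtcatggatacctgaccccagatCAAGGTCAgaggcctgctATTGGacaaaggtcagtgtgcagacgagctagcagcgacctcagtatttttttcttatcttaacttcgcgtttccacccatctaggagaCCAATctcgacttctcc
Got1 (chr19:43524556-43524855): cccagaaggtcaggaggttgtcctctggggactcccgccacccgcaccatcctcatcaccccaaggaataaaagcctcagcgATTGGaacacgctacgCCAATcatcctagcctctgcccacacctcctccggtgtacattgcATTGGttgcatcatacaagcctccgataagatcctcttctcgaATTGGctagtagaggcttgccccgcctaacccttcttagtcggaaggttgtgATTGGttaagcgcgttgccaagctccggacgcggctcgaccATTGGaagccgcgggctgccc

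The motifs were the TATA box (TATAAA), the CCAAT box, the GC box (GGGCGG), the E-box (CACGTG), the monomer nuclear receptor site (CAAGGNCA), the HNF4 site (CAAAGNCCA), the C/EBP site (TTGCNNCAA), the amino acid response site (TGATGNAAT), the antioxidant response site (TGACNNNGC), the STAT site (TTCNNNGAA), the inverted repeat of the bile acid receptor and the glucocorticoid response site. A match is a description of letters and not of a bound site. The upstream Csad window held CCAAT and CAAGGNCA, the latter a form of the half-site read by nuclear receptors that bind as monomers, and the downstream window held only the reverse of GGGCGG. In Bhmt, CAAGGNCA was found once and CCAAT, in either direction, at 2 places. Got1 held 6 copies of CCAAT in either direction and none of the other 11 motifs. CCAAT is present in 37.4% of the 32544 distinct promoter windows of this length, CAAGGNCA in 6.68% and GGGCGG in 35.9%. No 2 of the printed matches overlap.

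Csad encodes cysteine sulfinic acid decarboxylase, which makes hypotaurine, the direct precursor of taurine. It lies at chr15:102176999-102204724 (GRCm38, minus strand), and its principal transcript has 15 exons and 2279 bases. The upstream RefSeq window printed above lies wholly outside these coordinates. Which start is used in these livers was not tested. Csad levels were 346, 371 and 376 CPM in WT replicates 1, 2 and 3. In CgA-KO replicates 1, 2 and 3 they were 57.0, 67.9 and 86.6 CPM. The highest CgA-KO liver was thus far below the lowest WT liver, and the WT livers lay within a narrow band. The means were 364 ± 16.2 and 70.5 ± 14.9 CPM (SD, n = 3 each), a fall of 5.17-fold. The log2 fold change was -2.37 with a standard error of 0.231 (edgeR, adjusted p = 0.00247), and 0.462% of all genes tested fell further. Dropping any 1 library kept it between -2.52 and -2.20, and the exact two-sided permutation test gave p = 0.1, the smallest that 3 livers against 3 allow. Scaled to the hepatocyte markers it was -2.08.

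The Csad locus overlaps 1 other gene with a row in the table, Zfp740 on the opposite strand, a zinc finger gene. Zfp740 had between 540 and 1437 counts per library, against 1228 to 8876 for Csad, and was not called (43.7 ± 12.6 CPM for WT and 46.2 ± 8.496 CPM for CgA-KO, n = 3 each, edgeR adjusted p = 0.864). Gadl1, a related decarboxylase, did not pass the filter and held between 1 and 21 counts in a library.

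Cdo1 encodes cysteine dioxygenase, which makes the cysteine sulfinate that Csad uses. It lies at chr18:46713193-46728395. Its levels were 763, 1373 and 1018 CPM in WT replicates 1, 2 and 3 and 1333, 2007 and 1431 CPM in the same order in CgA-KO. The genotypes overlapped, since WT replicate 2 was above CgA-KO replicate 1. The means were 1051 ± 306 and 1590.3 ± 364 CPM (n = 3 each), and edgeR made no call (log2 fold change 0.60, standard error 0.304, adjusted p = 0.232). With library size alone in place of TMM it was 0.91 and called (adjusted p = 0.0389), as it was with hepatocyte scaling (0.88, adjusted p = 0.0294). In all 14 alternatives its log2 fold change stayed above 0, between 0.44 and 0.91.

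The ratio of the counts of both enzymes within a library does not depend on how libraries are scaled. For every 100 Cdo1 counts there were 45.3, 27.0 and 36.9 Csad counts in WT replicates 1, 2 and 3, and 4.28, 3.38 and 6.05 in CgA-KO replicates 1, 2 and 3. All WT libraries were above all CgA-KO libraries. On the log2 scale the ratio was lower in CgA-KO, with a difference of -3.004, which is 8.02-fold (exact permutation test, p = 0.1, the smallest possible), and the difference stayed between -3.23 and -2.81 with each library left out. Against each of the other 8 genes the Csad counts were also lower in every CgA-KO library than in any WT library, by between 5.41-fold against Ahcy and 17.2-fold against Bhmt. These 9 ratios share the Csad counts and are not independent.

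**Figure D2:**
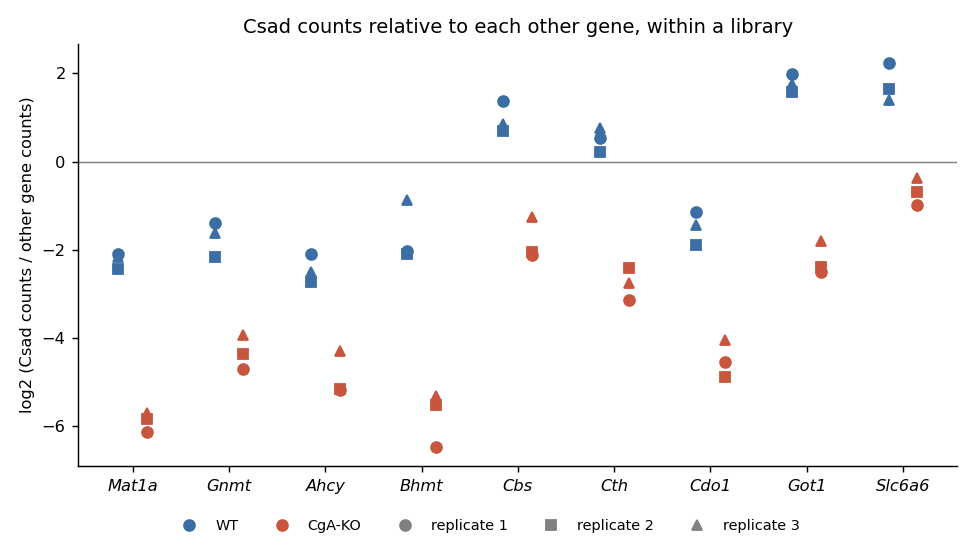
Log2 of Csad counts over the counts of each other gene in the same library (y axis), for WT (blue) and CgA-KO (red) livers, with a marker shape per replicate number. In all 9 comparisons the 3 CgA-KO libraries lie below the 3 WT libraries, with the widest gap in mean for Bhmt and the narrowest for Ahcy.

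Got1 encodes the cytosolic aspartate aminotransferase, which also takes cysteine sulfinate as a substrate and moves amino groups between aspartate and glutamate. It lies at chr19:43499752-43524605. It stood at 87.6, 125 and 111 CPM in WT replicates 1, 2 and 3. In CgA-KO replicates 1, 2 and 3 it stood at 321, 357 and 300.5 CPM. Every CgA-KO liver was above every WT liver. The means were 108 ± 18.7 and 326 ± 28.6 CPM (n = 3 each), a rise of 3.02-fold, or 1.596 on the log2 scale with a standard error of 0.219 (edgeR, adjusted p = 0.00513). In the 6 fits that each dropped 1 library it stayed between 1.504 and 1.71 and was called. The mitochondrial form Got2 was not called (334 ± 44.9 and 288 ± 59.1 CPM, n = 3 each, edgeR adjusted p = 0.591).

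Csad and Got1 therefore changed order. Got1 counts were 0.253, 0.336 and 0.296 times those of Csad in WT replicates 1, 2 and 3, and 5.63, 5.25 and 3.47 times in CgA-KO replicates 1, 2 and 3. Both enzymes can act on cysteine sulfinate, and the counts say nothing of their activity.

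Slc6a6 encodes the taurine transporter of the plasma membrane, at chr6:91684053-91759066. Its levels were 73.4, 118 and 142 CPM in WT replicates 1, 2 and 3, with WT replicate 1 lowest. In CgA-KO replicates 1, 2 and 3 they were 112, 109.9 and 112 CPM, all inside the WT range. The log2 fold change was 0.00 with a standard error of 0.25 (edgeR, adjusted p = 0.995), and its sign turned under DESeq2 and under median-of-ratios factors. No difference in the transporter was detectable with 3 livers per genotype.

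Bhmt encodes betaine-homocysteine methyltransferase, which remakes methionine with a methyl group from the choline product betaine. It lies at chr13:93616675-93637961. Its levels were 1401, 1586 and 688 CPM in WT replicates 1, 2 and 3. In CgA-KO replicates 1, 2 and 3 they were 5053, 3092 and 3459 CPM. The genotypes did not overlap, although WT replicate 3 lay far below the other WT livers. The means were 1225 ± 474 and 3868 ± 1042 CPM (n = 3 each), a rise of 3.16-fold, or 1.66 on the log2 scale with a standard error of 0.379 (edgeR, adjusted p = 0.0244). Without WT replicate 3 the log2 fold change was 1.37 and not called (adjusted p = 0.109), and without CgA-KO replicate 1 it was 1.46 (adjusted p = 0.0673). Bhmt2, the neighbouring paralog, was at 123 ± 5.55 and 156 ± 15.02 CPM (n = 3 each) and was not called (edgeR adjusted p = 0.254), and reads of the pair could be split in quantification.

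Mat1a encodes the liver form of methionine adenosyltransferase, which makes S-adenosylmethionine. It lies at chr14:41105035-41124412. It stood at 1476, 2006 and 1673 CPM in WT replicates 1, 2 and 3. The levels in CgA-KO replicates 1, 2 and 3 were 3986, 3863 and 4472 CPM, each well above the highest WT liver. The means were 1718 ± 268 and 4107 ± 322 CPM (n = 3 each), a rise of 2.39-fold, or 1.26 on the log2 scale with a standard error of 0.266 (edgeR, adjusted p = 0.0188). Without WT replicate 3 the value was 1.23 and was not called (adjusted p = 0.118). Mat2a, which encodes the form of the enzyme used outside the liver, was not called (log2 fold change -0.11, edgeR adjusted p = 0.807).

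Gnmt and Ahcy, the other members of the methionine cycle, showed no call. Gnmt encodes glycine N-methyltransferase, which uses up S-adenosylmethionine when it is plentiful, at chr17:46725664-46729168. Its levels were 904, 1650.0 and 1159 CPM in WT replicates 1, 2 and 3 and 1473, 1386 and 1325 CPM in the same order in CgA-KO, so that the CgA-KO livers fell between WT replicates 2 and 3. Its log2 fold change was 0.17 with a standard error of 0.281 (edgeR, adjusted p = 0.733). Ahcy encodes adenosylhomocysteinase, which releases homocysteine, at chr2:155059310-155074497. Its levels were 1468, 2459.9 and 2127 CPM in WT replicates 1, 2 and 3 and 2055, 2419 and 1699.9 CPM in the same order in CgA-KO, with the CgA-KO values inside the WT range. Its log2 fold change was 0.03 with a standard error of 0.293 (edgeR, adjusted p = 0.962). The 4 genes of the cycle summed to 6199 ± 1317 CPM (WT) and 11430.0 ± 992 CPM (CgA-KO) (n = 3 each), without overlap (exact permutation test, p = 0.1), and the sum rests on Bhmt and Mat1a.

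Transsulfuration has 2 steps, both of which use pyridoxal phosphate. Cbs encodes cystathionine beta-synthase, which joins homocysteine to serine, at chr17:31608894-31637238. Its levels were 133, 230.5 and 208 CPM in WT replicates 1, 2 and 3 and 247, 281 and 207 CPM in the same order in CgA-KO. They overlapped, with WT replicate 1 apart from the other 5 libraries, and the log2 fold change was 0.36 with a standard error of 0.257 (edgeR, adjusted p = 0.39).

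Cth encodes cystathionine gamma-lyase, which releases cysteine, at chr3:157894248-157925077. It stood at 239.5, 316 and 221 CPM in WT replicates 1, 2 and 3, and at 505, 359 and 579 CPM in CgA-KO replicates 1, 2 and 3. The genotypes did not overlap, with CgA-KO replicate 2 closest to WT. The means were 259 ± 50.5 and 481 ± 112 CPM (n = 3 each), and the log2 fold change of 0.89, with a standard error of 0.261, missed the threshold in edgeR (adjusted p = 0.0561). DESeq2 and limma-voom called it (adjusted p = 0.00823 and 0.0471), as edgeR did without CgA-KO replicate 2 (1.11, adjusted p = 0.0384). The 14 alternatives gave it an adjusted p between 0.00823 and 0.226.

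**Figure D3:**
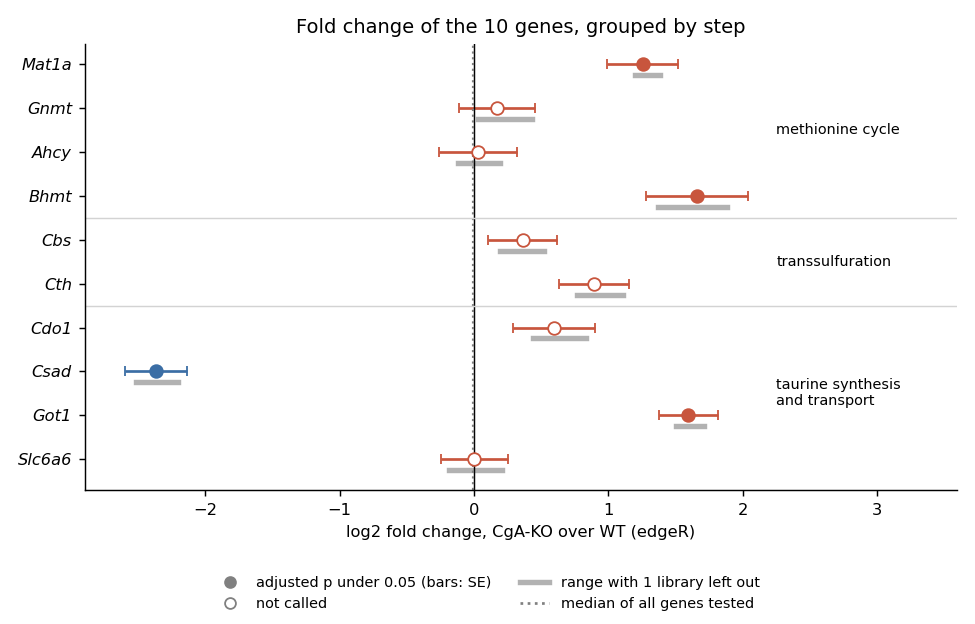
Log2 fold change of CgA-KO over WT for each gene (x axis) by step of the pathway, with bars for the standard error, filled points for an adjusted p-value under 0.05 and a grey band for the range with 1 library left out. Csad at -2.37 stands alone on the lower side, while Mat1a, Bhmt and Got1 lie between 1.26 and 1.66. Got1 is drawn under taurine synthesis and transport, although transamination leads cysteine sulfinate toward pyruvate and sulfite.

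Levels of different genes were compared as CPM per kb of the principal transcript. In WT the order ran from Gnmt (1196 ± 366 CPM per kb) over Ahcy (794), Cdo1 (659), Mat1a (495.5) and Bhmt (492) to Csad (159.8), Cth (143), Got1 (52.4), Cbs (30.6) and Slc6a6 (17.96). From Gnmt to Bhmt the ranges of neighbours over the 3 livers overlapped, as did those of Csad and Cth, and of Cbs and Slc6a6. Within a library, Gnmt was above Ahcy, Ahcy above Cdo1, Cdo1 above Mat1a and Cbs above Slc6a6 in 3 of 3 WT livers, while Mat1a was above Bhmt in 1 and Csad above Cth in 2. Between Bhmt and Csad, Cth and Got1, and Got1 and Cbs the ranges of the 3 livers did not overlap. In CgA-KO livers the order was Bhmt (1553.5 ± 419 CPM per kb), Gnmt (1348), Mat1a (1184), Cdo1 (997), Ahcy (809), Cth (265), Got1 (158), Cbs (39.3), Csad (30.9) and Slc6a6 (18.01). Csad moved from rank 6 to rank 9, where its range overlapped that of Cbs but not that of Slc6a6, and Cbs was above it in 2 of 3 livers. Bhmt moved from rank 5 to rank 1, with ranges that overlapped those of Gnmt.

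**Figure D4:**
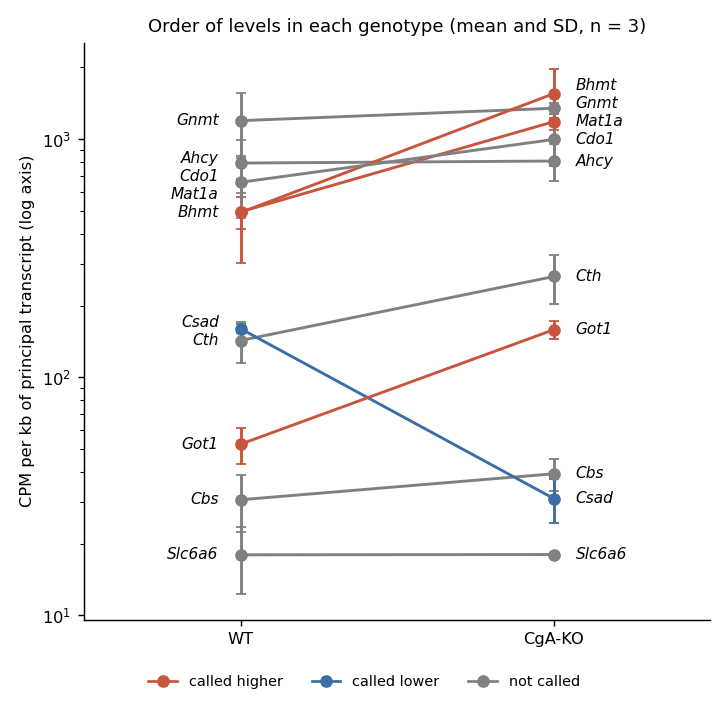
Mean CPM per kb of the principal transcript (log axis) with SD over 3 livers in WT and CgA-KO, joined by a line for each gene. The Csad line falls from 159.8 to 30.9 and crosses those of Cth, Got1 and Cbs in its rank, while 3 lines marked as called rise.

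To see whether the rest of the pathway moved alike, 48 other genes of methionine, one-carbon, cysteine, glutathione and taurine metabolism were taken as a list, of which 47 passed the filter. edgeR called 3 of them (6.38%, against 12.4% of all genes tested), 1 higher and 2 lower in CgA-KO livers. Pter, which encodes a hydrolase of N-acetyltaurine, fell from 54.2 ± 8.75 to 29.6 ± 5.44 CPM (n = 3 each, log2 fold change -0.87, edgeR adjusted p = 0.0254). Chdh, the choline dehydrogenase that supplies betaine, fell from 155 ± 5.03 to 98.8 ± 6.14 CPM (n = 3 each, -0.65, edgeR adjusted p = 0.0452). Slc16a6, a transporter of the monocarboxylate family, rose from 3.27 ± 1.37 to 7.60 ± 0.43 CPM (n = 3 each, 1.23, edgeR adjusted p = 0.0478). In the fits without 1 library edgeR called Pter in 2 of 6, Slc16a6 in 1 and Chdh in 0, and with library size alone or hepatocyte scaling it called none of the 3.

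The remaining genes were grouped by step. Of 13 genes of the methionine cycle and methionine salvage, 5 of methyl acceptors, 7 of cysteine and sulfide oxidation and 4 of glutathione synthesis, edgeR called 0, with 1, 1, 2 and 2 at an unadjusted p-value under 0.05 and 0, 1, 1 and 2 called by DESeq2. The 4 genes from cysteine to glutathione had log2 fold changes from -0.69 for Gclc, the catalytic subunit of the first enzyme (edgeR adjusted p = 0.0835), to 0.09 for the cystine transporter Slc7a11. Baat, which joins bile acids to taurine, averaged 259 CPM (WT) and 192 CPM (CgA-KO) (-0.43, edgeR adjusted p = 0.212). The median log2 fold change of the 47 genes was -0.25, with 33 lower and 14 higher. Under library size alone it was 0.03, with 26 higher and 21 lower, where the median of all genes rose from -0.01 to 0.26, so that relative to all genes it was -0.24 and -0.23.

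**Figure D5:**
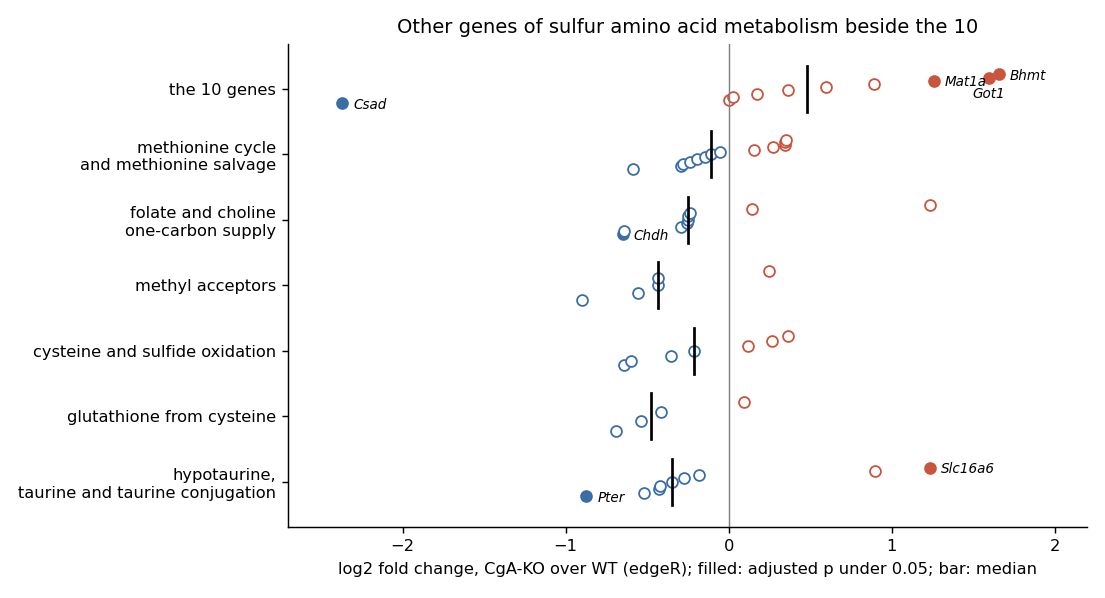
Log2 fold change of CgA-KO over WT (x axis) for the 10 genes and for 47 other genes of the pathway by step, filled where the adjusted p-value was under 0.05, with a bar at the median of each row. The 10 genes span -2.37 to 1.66, while the others reach down to -0.90, with 3 filled points at -0.87 (Pter), -0.65 (Chdh) and 1.23 (Slc16a6).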

How the data were processed

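The authors quantified paired-end reads of poly(A)-selected liver RNA at the transcript level with Salmon 1.4.0 against the GRCm38 transcriptome. The deposited values are whole numbers in rows named by gene symbol and were treated as counts. The step from transcripts to genes, with any rounding or scaling in it, is not given in the sources used here. All 6 columns were mapped to a sample by title, and 0 were left without one. Of 32212 rows, 78 repeated a symbol, none of them among the 10 genes.

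Genotypes were compared on these counts in R 4.3.3 with edgeR 4.0.16 (filterByExpr with a minimum count of 10, TMM factors, robust quasi-likelihood fit, two-sided test of genotype). The standard error was taken from the F statistic, as the fold change on the log2 scale over its root. With no statement that the livers came from separate cages or days, p-values measure the spread between these 6 samples. Levels below 3 counts, which is 0.0965 to 0.284 CPM per library without TMM factors and for counting error only, cannot be seen. Replicates of 1 genotype differed by more than sampling noise (chi-square over its degrees of freedom between 31.9 and 202). Coordinates and transcript lengths are from GENCODE M21 on GRCm38.

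Alternatives were DESeq2 1.42.0, limma-voom (limma 3.58.1), median-of-ratios factors, library size alone, a total of at least 1 count, summed repeated symbols, a replicate block, and each library left out. Scaling to 10 hepatocyte markers was added after seeing the data. All 10 genes, the called genes of the list of 48 others, and the 5 genes most like Csad were to be named. The 10 genes and the lists were chosen with earlier results of these data known. The fits were tested on simulated data, whose outcome is not reported here and is not used for any call above. Chga has 0 counts in all 6 libraries, so genotype could not be checked from it. Raw reads were not analysed here, and 1 gene of the list of 48 is counted but not reported here by name. Figures were drawn with matplotlib 3.10.9.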

Additional observations from a re-analysis of the deposited data

How the results depend on the processing

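Over 14 alternatives, Csad and Got1 were called in each, with log2 fold changes from -2.52 to -2.08 and from 1.504 to 1.89, and Gnmt and Cbs were called in none. The count of all genes called was 1726, and it was 2601 with DESeq2, 955 with hepatocyte scaling and between 394 and 2126 with 1 library left out. The number of the 10 genes called lay between 2 and 5 with 1 library left out, and was 2 without WT replicate 3, where Mat1a and Bhmt lost the call. Mat1a lay between 1.197 and 1.38 in these fits, Bhmt between 1.37 and 1.89, and Cth, called only without CgA-KO replicate 2, between 0.77 and 1.11. Cth was also called with DESeq2 (0.87), limma-voom (0.90), library size alone (1.18) and hepatocyte scaling (1.25), and Cdo1 with library size alone (0.91) and hepatocyte scaling (0.88). These 2 scalings moved the median of the 10 genes to 0.79 and 0.77, and that of all genes to 0.26 and 0.27. Ahcy, never called, lay between -0.12 (without WT replicate 1) and 0.19, with -0.06 without CgA-KO replicate 2. Slc6a6, never called, was at -0.014 with DESeq2, at -0.0138 with median-of-ratios factors and lay between -0.19 and 0.21 with 1 library left out. Of the 47 other pathway genes, DESeq2 called 9, 2 higher and 7 lower, where it called 18.8% of all genes tested. An unadjusted DESeq2 p-value under 0.05 was found for 14 of the 47. edgeR called 0 of them with library size alone and with hepatocyte scaling, with 10 and 5 at an unadjusted p-value under 0.05. It called between 0 and 4 with 1 library left out, with 0 without WT replicate 2, WT replicate 3, CgA-KO replicate 1 or CgA-KO replicate 3. The causes were not tested.

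Samples share replicate numbers, but the correlations of same-numbered deviations from the genotype means were 0.199, 0.0127 and -0.0659, so the numbers were not taken as pairs. With the replicate number as a block, 4 of the 10 genes and 2 of the 47 others were called. Pairing by number cannot change the mean difference of the Csad to Cdo1 ratio, -3.004. An exact sign-flip test on the paired differences gave p = 0.25, the smallest this pairing allows. The fewest counts of any of the 10 genes in a library were 820, for Slc6a6 in WT replicate 1, the shallowest library.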

Other observations

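The 5 genes outside the 10 whose log2 CPM was most like that of Csad over the 6 libraries were Rnf43, Hhex, Iqcb1, Pdxk and Hes6, with Pearson's r between 0.993 and 0.996. The 6 points form 2 groups by genotype, so r mainly reflects that gap, and 202 of 13857 genes had r above 0.95. Pdxk, which encodes pyridoxal kinase, averaged 64.9 CPM (WT) and 28.2 CPM (CgA-KO) (log2 fold change -1.20, edgeR adjusted p = 0.00581). Hhex, a transcription factor of liver development, was at 117 and 52.6 CPM (-1.15, edgeR adjusted p = 0.00812). Rnf43, which dampens Wnt signals at the membrane, was at 25.3 and 15.2 CPM (-0.74, edgeR adjusted p = 0.0205). Hes6 was at 60.5 and 13.3 CPM (-2.19, edgeR adjusted p = 0.00201), and Iqcb1 at 7.54 and 4.26 CPM (-0.82, edgeR adjusted p = 0.046). These genes were picked for their likeness to Csad over the same libraries, so their direction is no separate evidence.

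Acnat2, a peroxisomal acyltransferase listed with taurine conjugation, averaged 41.1 ± 19.1 CPM (WT) and 76.4 ± 19.1 CPM (CgA-KO, n = 3 each). The genotypes overlapped, and with all 6 libraries it was not called (log2 fold change 0.90, edgeR adjusted p = 0.11). In the 6 fits without 1 library edgeR called Acnat2 in 1, the fit without WT replicate 1 (adjusted p = 0.0116). Its neighbour Acnat1, a close paralog with which reads could be split, was at 25.1 and 17.5 CPM (-0.52, edgeR adjusted p = 0.268). Acnat2 and Acnat1 were chosen here with their values in view.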
